A study of Mus musculus with 12 samples.

Results

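Paqr9 and 6 relatives from the progestin and adipoQ receptor (PAQR) family were followed through mouse liver on fasting and sugar feeding. The relatives are Adipor1, Adipor2, Paqr3, Paqr4, Paqr7 and Paqr8, so 7 genes were taken by symbol from the 16346 in the deposited table. Paqr9 was picked from its own measured values, because its response to feeding differed between genotypes with sucrose and with fructose. Those differences, and the contrasts they are built from, are therefore described for Paqr9 without a test. The relatives were taken as members of its family and were tested in every contrast.

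The livers came from 12 C57BL6J mice aged 12 weeks, 2 in each of 6 groups formed by genotype and diet. Control mice carried floxed Med13 alleles (Med13fl/fl), and MED13-LKO mice carried the same alleles with Alb-Cre, a recombinase driven by the albumin promoter and so directed at hepatocytes. Mice of each genotype were fasted for 16 h, or were refed for 4 h with normal chow and drinking water holding 30% sucrose or 30% fructose. The fasted mice were killed earlier in the day than the refed mice, so feeding and clock time cannot be told apart here, and no group received chow with plain water. MED13 belongs to the kinase module of Mediator, the complex through which transcription factors reach RNA polymerase II, and the design asks how its loss in liver alters the RNA response to feeding.

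PAQR proteins span the membrane several times and share a metal-binding core. ADIPOR1 and ADIPOR2 are the receptors of adiponectin, a hormone secreted by fat cells, and in liver they are known for signalling through AMP-activated protein kinase (AMPK), for acting with the nuclear receptor PPAR alpha, and for ceramidase activity. PAQR7, PAQR8 and PAQR9 are classed as membrane progestin receptors, while PAQR3 sits in the Golgi, where it binds the sterol sensor SCAP. PAQR9 has also been described as a regulator of PPAR alpha protein stability in fasted liver.

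Values below are normalized counts per gene, in which the authors had already corrected for library size, and fold changes are on the log2(normalized count + 1) scale, on which the change of a gene with few reads comes out too small. A gene was called where limma, run on all 12 libraries together and on the 12366 genes whose mean reached 10, gave a Benjamini-Hochberg adjusted p under 0.05. Control libraries had totals of 21100000 to 24200000 normalized counts, and those labelled MED13-LKO had 17300000 to 18700000. From the steps between low values of 2652 genes with 1 transcript, depth was estimated at 16100000 to 24200000 reads on genes. Med13, the targeted gene, had no lower level in the livers labelled MED13-LKO: fasted ones held 808 and 899 normalized counts, sucrose-fed ones 646 and 717 and fructose-fed ones 681 and 1055. Fasted controls held 674 and 796, sucrose-fed controls 578 and 673 and fructose-fed controls 607 and 778. This count sums reads over the whole gene, so exons outside the deleted segment can add to it, which was not tested. On Western blots of liver nuclear protein the paper reported a near complete loss of MED13 in MED13-LKO mice. Those blots were not analysed here, and the genotypes are named below as they are labelled.

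Hepatocyte markers marked the tissue as liver, with a summed level of 6 genes between 1750000 and 3080000 normalized counts in all libraries. Averaged over the diets, 5 of the 6 were lower in the livers labelled MED13-LKO, where the sum ran from 1750000 to 2120000 against 2300000 to 3080000 in controls. Of 6 Kupffer cell markers 2 were higher and of 5 sinusoidal endothelial markers 3 were higher, and all 4 red blood cell genes were lower. In this contrast 12.1% of all genes tested were called higher and 13.2% lower. Summed levels were 2972 to 4147 against 4031 to 5360 for the Kupffer list, 3036 to 3528 against 3471 to 4743 for the endothelial list and 7658 to 13563 against 4334 to 9832 for the red cell list, each with controls first. Of 5 stellate cell markers 2 were lower (summed levels 4941 to 6099 against 4540 to 5340), of 3 cholangiocyte markers 1 was lower (624 to 819 against 474 to 743), and the 1 lymphocyte marker tested was higher (171 to 247 against 215 to 323 for the list). The hepatocyte sum was lower after feeding as well, at 2300000 to 2650000 in fed against 3010000 to 3080000 in fasted controls. Genes of each list were called by genotype over the diets, and their part in the genotype contrasts of the family was not tested. In bulk liver, fewer cells of a type and less RNA per cell cannot be told apart.

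Adipocyte RNA was seen in 1 library. Adipoq, which encodes adiponectin itself, stood at 22.5 in control fructose replicate 1 and at 3.44 or below in the other 11 libraries, with 7 libraries at 0. Cfd stood at 77.2 in that replicate and at 2.07 or below in the others, and no value was found for the remaining adipocyte markers, Plin1 and Lep. Values without that library are given beside the fructose results of the members where they moved. For Paqr3, Paqr4 and Paqr8 no such values are given.

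The family spanned a wide range of abundance in liver. Per kilobase of the longest coding transcript, and as means over the 12 libraries, Adipor2 stood highest with 2682 normalized counts. Adipor1 followed with 546 and Paqr9 with 456. Paqr7 held 206, Paqr3 51.6, Paqr4 9.94 and Paqr8 1.10 on the same scale. Over single libraries Paqr9 ran from 155 to 748 per kilobase and Adipor1 from 465 to 675.

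**Figure D1:**
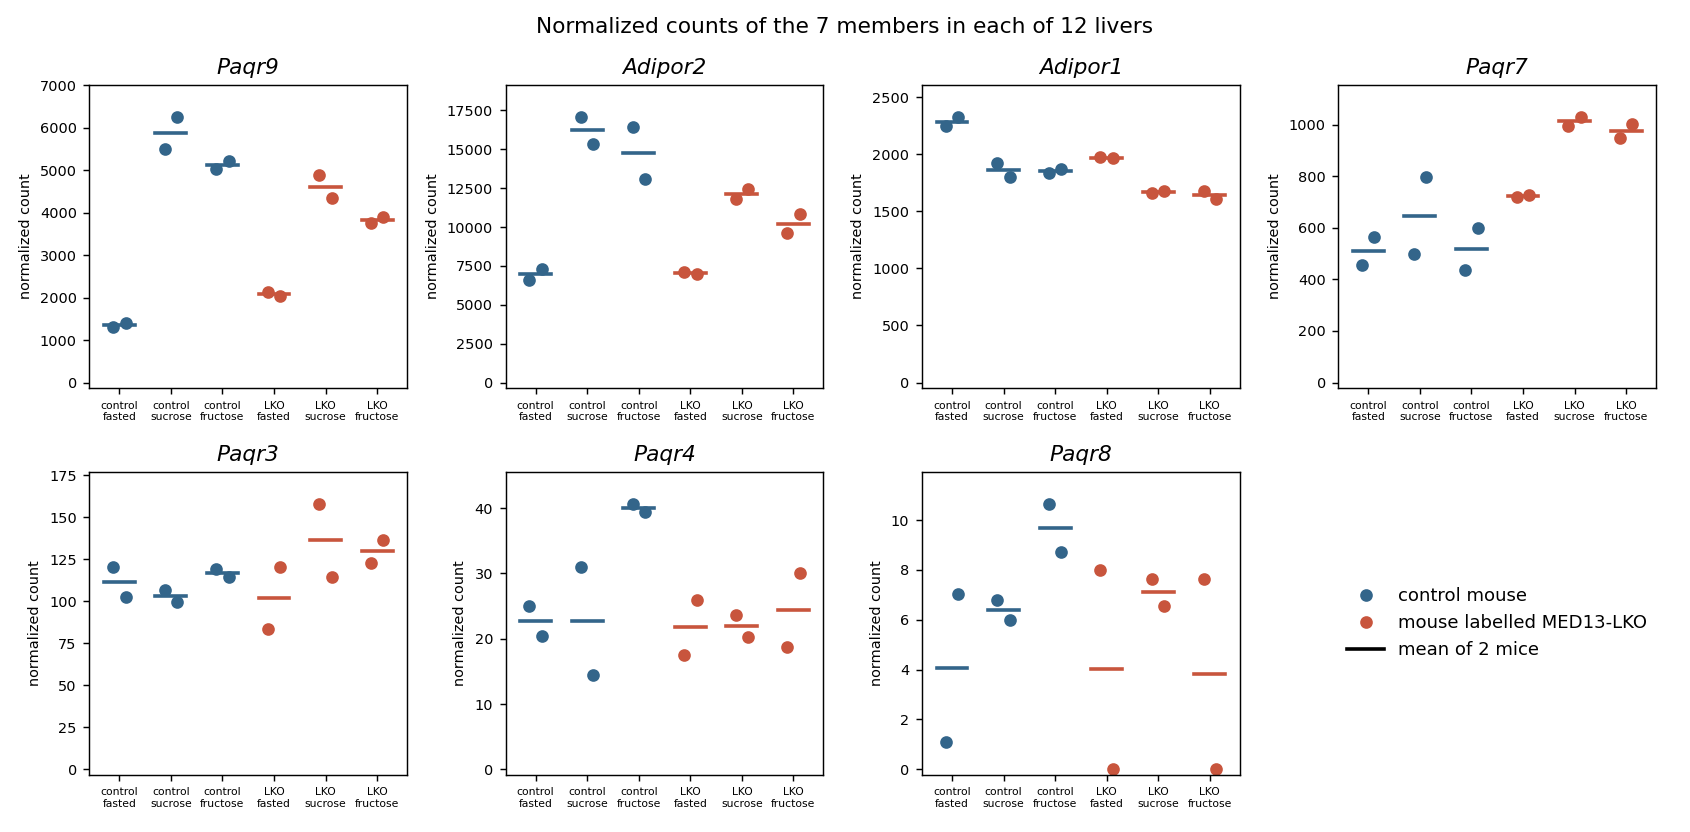
Normalized counts (linear axes) of the 7 members, where each point is 1 mouse, each bar the mean of the 2 mice of a group, blue the controls and red the mice labelled MED13-LKO. Paqr9 runs from 1298 to 6260 and Adipor2 from 6617 to 17090 with the lowest values in fasted livers, Adipor1 is highest in the fasted controls, and Paqr8 lies between 0 and 10.7.

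Paqr9 was low in fasted liver and 1.83 to 4.34 times as high after feeding, across both sugars and both genotypes. It is a single-exon gene with 1 annotated transcript on chromosome 9 (GRCm38, 95559657 to 95568023, plus strand), and 0.012% of its 31-base words occur in another gene. Fasted controls held 1298 and 1411 normalized counts, sucrose-fed controls 5508 and 6260, and fructose-fed controls 5021 and 5213. Fasted livers labelled MED13-LKO held 2140 and 2038, sucrose-fed ones 4887 and 4345, and fructose-fed ones 3759 and 3891. The fasted controls were the lowest 2 libraries of all and the sucrose-fed controls the highest 2, and no pair of groups overlapped.

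Ordered by mean, the Paqr9 groups ran from sucrose-fed controls at 5884 ± 532 (SD, n = 2) through fructose-fed controls at 5117 ± 136 to sucrose-fed livers labelled MED13-LKO at 4616 ± 383. Fructose-fed livers labelled MED13-LKO followed at 3825 ± 93.2, then the fasted ones at 2089 ± 71.9 and the fasted controls at 1354 ± 79.9. Among neighbours in this order, the gap between groups exceeded the distance between the mice of both groups at the lower end only. It was 1619 normalized counts between the fructose-fed and the fasted livers labelled MED13-LKO, and 628 between these fasted livers and the fasted controls. Among the 4 fed groups each gap was smaller than the distance between the mice of at least 1 neighbour.

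Feeding took Paqr9 in controls to 4.34 times its fasted level with sucrose (log2 fold change 2.12, SE 0.09) and to 3.78 times with fructose (1.92, SE 0.09). The same steps in livers labelled MED13-LKO were 2.21 times (1.14, SE 0.09) and 1.83 times (0.87, SE 0.09). The smaller steps had both a higher start and a lower end. Against controls, Paqr9 in the livers labelled MED13-LKO stood 0.63 higher on the log2 scale when fasted, and lower by 0.35 with sucrose (log2 difference -0.35) and by 0.42 with fructose (-0.42).

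The difference between genotypes in the feeding response of Paqr9 was -0.98 on the log2 scale with sucrose (95% interval -1.26 to -0.69) and -1.05 with fructose (-1.33 to -0.76). These are the values on which Paqr9 was selected. The criterion was an adjusted p under 0.05 from limma in both interactions, and Paqr9 stood at 0.0205 and 0.0372, which record its selection and test nothing. It was the 1 gene inside the criterion in both, among 18 genes (0.146%) called with sucrose and 3 genes (0.0243%) called with fructose. Adipor2, outside it, stood at 0.515 and 0.390. Both interactions use the same fasted mice, so they do not support each other independently. When each library was left out, the differences ran from -1.07 to -0.88 with sucrose and from -1.11 to -0.99 with fructose. Selection on these values favours a stable sign, so these ranges and the intervals above are descriptions and no support. The criterion itself was met under 10 of 19 alternatives with sucrose and 4 of 19 with fructose. Without the control fructose library that held Adipoq, the fructose difference was -1.07.

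Averages over genotypes and over diets are orthogonal to the selecting contrasts and could be tested, although they share the mice and the estimate of the spread. Averaged over genotypes, Paqr9 rose with sucrose by 1.63 on the log2 scale (SE 0.06, limma adjusted p = 2.31e-06) and with fructose by 1.40 (SE 0.06, adjusted p = 1.06e-05). It was higher in 4 of 4 fed livers than in every fasted one for each sugar, and both calls held under all 19 alternatives. Averaged over the diets, the genotypes differed in Paqr9 by -0.05 (95% interval -0.16 to 0.07, adjusted p = 0.545), an average of opposite differences in the fasted and the fed state. Between the sugars, Paqr9 stood 0.20 lower with fructose than with sucrose in controls (log2 difference -0.20) and 0.27 lower in livers labelled MED13-LKO (-0.27). These differences are described without a test. Neither pair of groups overlapped, but each gap was smaller than the distance between the sucrose-fed mice.

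**Figure D2:**
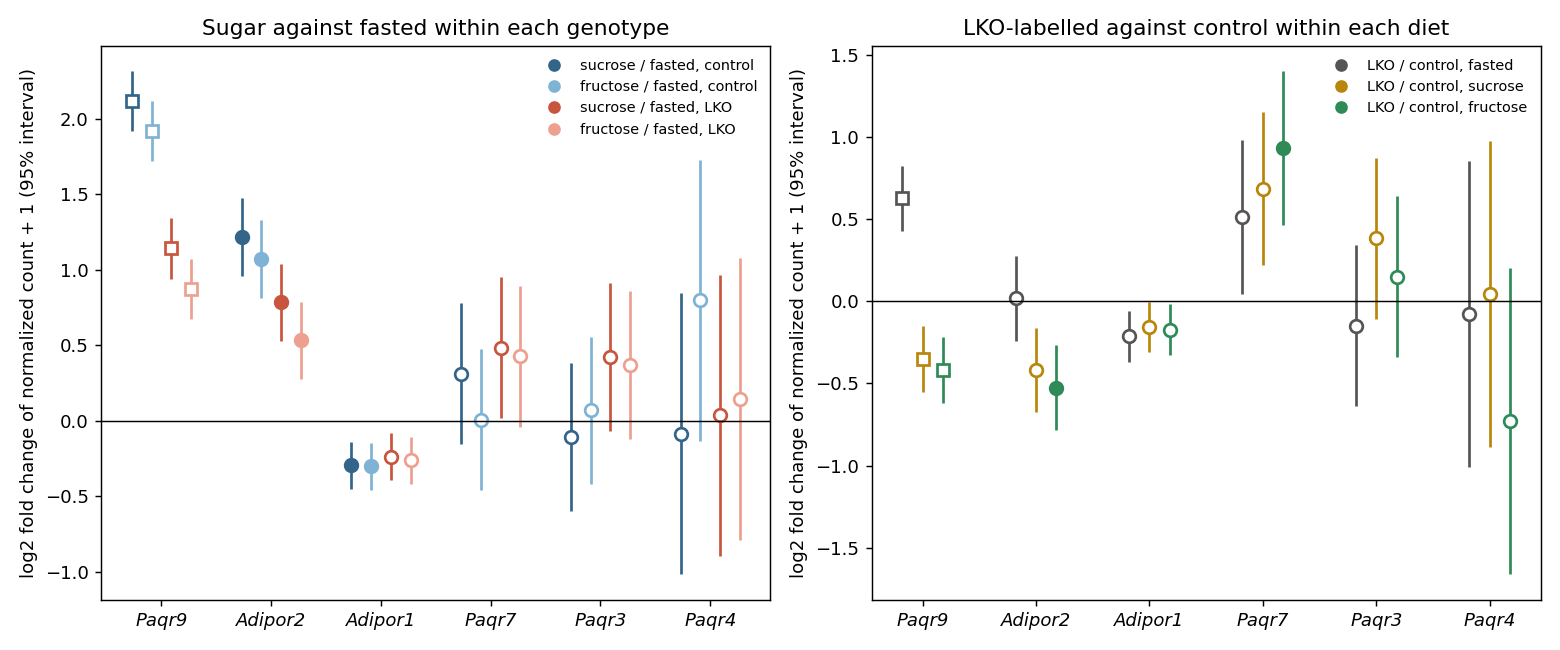
Log2 fold changes with 95% intervals for the 6 members that passed the filter on low values, for each sugar against fasting (left) and for MED13-LKO-labelled against control livers (right). Filled points passed an adjusted p of 0.05, open circles did not, and squares show Paqr9, which is drawn without a test. The feeding points of Paqr9 lie at 0.87 to 2.12, those of Adipor2 at 0.53 to 1.22 and those of Adipor1 at -0.30 to -0.24.

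Adipor2, the more abundant adiponectin receptor of this liver set, rose with both sugars in both genotypes. The gene lies on chromosome 6 (GRCm38, 119353150 to 119417704, minus strand), and none of its 31-base words occurs in another gene. Its normalized counts in controls were 6617 and 7327 before feeding, 17090 and 15349 on sucrose, and 16435 and 13071 on fructose. Livers labelled MED13-LKO held 7141 and 6951 before feeding, 11811 and 12452 on sucrose, and 9600 and 10810 on fructose. Every fed liver was above every fasted one, and every fed liver labelled MED13-LKO was below every fed control, while the fasted groups overlapped.

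Sucrose raised Adipor2 in controls by 1.22 (2.33-fold, SE 0.12, adjusted p = 0.000431 from limma), and fructose raised it by 1.07 (2.10-fold, SE 0.12, adjusted p = 0.00224), or by 0.91 (adjusted p = 0.00664) without the Adipoq library. The rises in livers labelled MED13-LKO were 0.78 for sucrose (1.72-fold, adjusted p = 0.00528 from limma) and 0.53 for fructose (1.45-fold, adjusted p = 0.0264). For sucrose the call in these livers was lost without sucrose replicate 2 labelled MED13-LKO (0.75, adjusted p = 0.0553 from limma). For fructose it was lost without fasted replicate 1 (0.55, 0.0998), fasted replicate 2 (0.51, 0.137) or fructose replicate 2 (0.45, 0.209) of that genotype, where the second value of each pair is the adjusted p. Averaged over genotypes, the rises were 1.001 with sucrose (adjusted p = 7.95e-05) and 0.80 with fructose (adjusted p = 0.000409), called under all 19 alternatives.

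Between genotypes Adipor2 did not differ detectably in fasted livers, with a log2 difference of 0.02 (95% interval -0.24 to 0.27, adjusted p = 0.949). With fructose it was lower in the livers labelled MED13-LKO by 0.52 (log2 difference -0.52, adjusted p = 0.0236), and with sucrose the difference was -0.42 (adjusted p = 0.0648). The fructose call was lost without control fructose replicate 1, the library with Adipoq (-0.36, adjusted p = 0.105), and without fructose replicate 1 (-0.44, 0.125) or replicate 2 (-0.61, 0.0602) labelled MED13-LKO. Averaged over the diets Adipor2 was lower by 0.31 (-0.31, SE 0.07, adjusted p = 0.00800), and by 0.25 (-0.25, adjusted p = 0.0110) without the Adipoq library. The feeding response itself differed between genotypes by -0.43 with sucrose (95% interval -0.80 to -0.07, adjusted p = 0.515) and by -0.54 with fructose (-0.91 to -0.18, adjusted p = 0.390; -0.38 without the Adipoq library), so that a difference like that of Paqr9 was not established for Adipor2. Over the 12 libraries, which share 6 group means, Pearson's r between Adipor2 and Paqr9 was 0.93 on the log2 scale.

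Adipor1, the other adiponectin receptor, moved the opposite way to Adipor2 on feeding, by a small and even step. It lies on chromosome 1 (GRCm38, 134415378 to 134433351, plus strand), and 0.453% of its 31-base words are shared with other genes. The control values were 2244 and 2327 before feeding, 1923 and 1804 on sucrose, and 1838 and 1866 on fructose. Livers labelled MED13-LKO held 1971 and 1970 before feeding, 1663 and 1678 on sucrose, and 1682 and 1604 on fructose. Fasted livers were above fed ones within each genotype, and controls were above the livers labelled MED13-LKO within each diet, without overlap.

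Averaged over genotypes, Adipor1 fell with sucrose by 0.27 on the log2 scale (limma adjusted p = 0.00553, log2 fold change -0.27, SE 0.05) and with fructose by 0.28 (-0.28, SE 0.05, adjusted p = 0.00497), called under all 19 alternatives. Within controls the falls were -0.29 with sucrose (adjusted p = 0.0291) and -0.30 with fructose (adjusted p = 0.0358). The values in livers labelled MED13-LKO were -0.24 (adjusted p = 0.0783) and -0.26 (adjusted p = 0.0517). The sucrose call in controls was lost on leaving out either fasted control, either sucrose-fed control or either sucrose-fed library labelled MED13-LKO, with adjusted p from 0.0510 to 0.173. The fructose call was lost without either fasted control, either fructose-fed control, or either fasted or sucrose-fed library labelled MED13-LKO, with adjusted p from 0.0540 to 0.201. The sizes stayed between -0.34 and -0.25 for sucrose and between -0.33 and -0.28 for fructose.

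By genotype, Adipor1 was lower in the livers labelled MED13-LKO over the diets by 0.18 (log2 difference -0.18, SE 0.04, adjusted p = 0.00881), called under all 18 alternatives. Within single diets the differences of -0.21 fasted, -0.16 with sucrose and -0.17 with fructose did not pass (adjusted p from 0.0857 to 0.226). The feeding response of Adipor1 differed between genotypes by 0.06 with sucrose (95% interval -0.16 to 0.27, adjusted p = 0.917) and 0.04 with fructose (-0.18 to 0.26, adjusted p = 0.931). Pearson's r between Adipor1 and Paqr9 was -0.76 over the 12 libraries.

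Because the 2 adiponectin receptors moved in opposite directions on feeding, the 250 bases upstream of a RefSeq start of each are shown, read in the direction of transcription on GRCm38.p6. The Adipor2 window is chr6:119388735-119388984 on the minus strand, at a start inside the gene span given above, and the Adipor1 window is chr1:134415128-134415377 on the plus strand, directly before the annotated start. Capitals mark the forkhead motif TGTTTAC, which was searched on both strands (GTAAACA on the other) together with the E-box CACGTG, a palindrome.
Adipor2: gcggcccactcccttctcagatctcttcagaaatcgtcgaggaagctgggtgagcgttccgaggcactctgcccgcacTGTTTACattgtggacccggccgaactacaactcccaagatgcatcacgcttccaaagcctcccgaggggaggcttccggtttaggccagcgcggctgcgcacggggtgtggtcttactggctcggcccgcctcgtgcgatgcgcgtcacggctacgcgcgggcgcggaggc
Adipor1: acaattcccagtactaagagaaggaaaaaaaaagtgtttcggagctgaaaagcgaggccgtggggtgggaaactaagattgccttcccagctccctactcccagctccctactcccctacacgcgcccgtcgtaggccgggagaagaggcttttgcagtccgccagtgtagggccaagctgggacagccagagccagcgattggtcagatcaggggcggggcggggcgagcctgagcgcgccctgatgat
The Adipor2 window held TGTTTAC 172 bases before the start, a motif found in 3.17% of the 32851 RefSeq windows of this length. The Adipor1 window held neither motif. CACGTG was in none of the 9 windows of the 6 members matched in the RefSeq table, against 6.02% of all windows. TGTTTAC occurred besides in 1 of the 2 Paqr8 windows. A match is a run of letters, and binding was not measured in these data. Paqr9 had no entry among these windows.

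Paqr7, which encodes membrane progestin receptor alpha, was higher in the livers labelled MED13-LKO. It lies on chromosome 4 (GRCm38, 134496697 to 134510235, plus strand), and 5.71% of its 31-base words occur in other genes, so that part of its estimated count is uncertain. Fasted controls held 457 and 564 normalized counts, sucrose-fed controls 498 and 796, and fructose-fed controls 435 and 597. Fasted livers labelled MED13-LKO held 720 and 728, sucrose-fed ones 995 and 1030, and fructose-fed ones 949 and 1000.5. Within each diet the genotypes did not overlap, and the control mice were spread more widely than the others.

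Averaged over the diets, Paqr7 was higher in the livers labelled MED13-LKO by 0.71 (1.64-fold, SE 0.12, adjusted p = 0.00231 from limma), called under all 18 alternatives and still so without the Adipoq library (0.63, adjusted p = 0.00470). Within diets the differences were 0.51 fasted (adjusted p = 0.159), 0.68 with sucrose (adjusted p = 0.0907) and 0.93 with fructose (adjusted p = 0.0258). The fructose call was lost without control fructose replicate 1 (0.70, adjusted p = 0.130) and without fructose replicate 1 (0.97, 0.0870) or replicate 2 (0.89, 0.134) labelled MED13-LKO. Without control sucrose replicate 2, the sucrose difference was 1.02 and passed (adjusted p = 0.0270), and without replicate 1 of that group it was 0.35 (adjusted p = 0.377). With feeding the averages over genotypes were 0.40 with sucrose (95% interval 0.07 to 0.73, adjusted p = 0.0977) and 0.22 with fructose (-0.11 to 0.55, adjusted p = 0.353). Without control sucrose replicate 1 the sucrose value was 0.57 and passed (adjusted p = 0.0193), and without replicate 2 it was 0.23 (adjusted p = 0.256). Without the Adipoq library the fructose value was 0.33 (adjusted p = 0.180). The genotype difference in the feeding response was 0.17 with sucrose (-0.49 to 0.83, adjusted p = 0.915) and 0.42 with fructose (-0.24 to 1.08, adjusted p = 0.688), the latter 0.19 without the Adipoq library.

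Paqr3, the Golgi member, was expressed at a low level that passed no contrast. It lies on chromosome 5 (GRCm38, 97082329 to 97111596, minus strand), with 16.9% of its 31-base words in other genes. Fasted controls held 121 and 102 normalized counts, sucrose-fed controls 106 and 99.4, and fructose-fed controls 119 and 114. Fasted livers labelled MED13-LKO held 83.2 and 120, sucrose-fed ones 158 and 114, and fructose-fed ones 123 and 136. The highest and the lowest value both belonged to this genotype. Averaged over genotypes the feeding values were 0.16 with sucrose (95% interval -0.19 to 0.50) and 0.22 with fructose (-0.13 to 0.56), and over diets the genotype value was 0.13 (-0.15 to 0.41).

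Paqr4, a member tied to sphingolipid metabolism, was lower still, with 14.4 to 40.7 normalized counts. It lies on chromosome 17 (GRCm38, 23736186 to 23740867, minus strand), and 10.1% of its 31-base words occur in 1 other gene. Fructose-fed controls stood highest with 40.7, in the library with Adipoq, and 39.4. Both were above the other 10 libraries, of which the highest held 31.02. Fructose against fasting in controls gave 0.80 (95% interval -0.14 to 1.73, adjusted p = 0.288), and the intervals of its other contrasts within groups were as wide. Paqr4 passed no contrast.

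Paqr8, which encodes membrane progestin receptor beta, had a mean below the filter of 10 and was not tested. It lies on chromosome 1 (GRCm38, 20890606 to 20939650, plus strand). Fasted controls held 1.10 and 7.01 normalized counts, sucrose-fed controls 6.78 and 5.997, and fructose-fed controls 10.7 and 8.73. Fasted livers labelled MED13-LKO held 8.01 and 0, sucrose-fed ones 7.65 and 6.56, and fructose-fed ones 7.64 and 0. Fasted and fructose-fed livers of that genotype thus each held 1 library at 0 and 1 near 8. Of 4 further PAQR genes, Paqr5 and Paqr6 stood at 4.50 or below in every library, and Mmd and Mmd2 were tested and passed neither the feeding nor the genotype averages. At an unadjusted p under 0.05 were 0 of 2 for genotype, 1 of 2 for sucrose and 2 of 2 for fructose. Of the 12366 genes, 4571, 3849 and 3857 were, in the same order.

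Counted over the 5 relatives of Paqr9 that passed the filter, 2 were called with sucrose in controls, where 8.57% of the 12366 genes tested were called, and 2 with fructose, where 5.6% were. These were Adipor2, higher, and Adipor1, lower, in both cases. Of the 5, Adipor2 alone was called in livers labelled MED13-LKO, with sucrose (5.71% of genes tested) and with fructose (6.53%). There 3 and 2 of the 5 had an unadjusted p under 0.05, as did 2577 and 2866 of the 12366 genes. The contrasts within a genotype share their fasted mice. Averaged over genotypes, 2 of the 5 were called with sucrose (16.8%) and 2 with fructose (16.2%).

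Between genotypes, 0 of the 5 were called by limma in fasted livers (8.98% of genes tested) and 0 with sucrose (6.03%). An unadjusted p under 0.05 was held by 2 and 3 of the 5, and by 3141 and 2642 of the 12366 genes. With fructose 2 of the 5 were called (7.69%), Adipor2 lower and Paqr7 higher. Over the diets 3 of the 5 were called, where 25.3% of all genes tested were, with Adipor1 and Adipor2 lower and Paqr7 higher. None of the 5 was called by limma between the sugars in either genotype (0.0404% of genes tested in each). At an unadjusted p under 0.05 stood 0 of the 5, against 1061 genes in controls and 951 in livers labelled MED13-LKO. In the interactions 0 of the 5 were called (0.146% of genes tested with sucrose, 0.0243% with fructose). With each sugar 1 of the 5, Adipor2, had an unadjusted p under 0.05, as did 1055 and 1170 of the 12366 genes. Without the mean trend or with only the compared groups in the fit, at least 1 of these settings ended each call of Adipor1 within controls, of Adipor2 with fructose and of Paqr7 with fructose, with adjusted p from 0.0619 to 0.200. Adipor2 differed between the sugars by -0.14 in controls (95% interval -0.40 to 0.11) and by -0.25 in livers labelled MED13-LKO (-0.51 to 0.01).

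The genes whose levels ran most like Paqr9 were ranked by Pearson's r of the log2 values over the 12 libraries, as a description, since the libraries share 6 group means. The highest were Gpd1 (r = 0.964), the cytosolic glycerol 3-phosphate dehydrogenase, Gata4 (0.962) and Nfic (0.960), both transcription factors, Fahd1 (0.955), a mitochondrial oxaloacetate decarboxylase, and S1pr1 (0.951), a receptor of sphingosine 1-phosphate. Gpd1 rose less steeply than Paqr9, from 3594 and 4081 normalized counts in fasted controls to 6764 and 7954 with sucrose and 6973 and 7705 with fructose. Fasted livers labelled MED13-LKO held 4903 and 4257, sucrose-fed ones 7784 and 7817, and fructose-fed ones 6008 and 6018. Gata4 went from 148 and 151 in fasted controls to 430 and 377 with sucrose. The fasted livers labelled MED13-LKO had 204 and 180 and thus lay above the fasted controls, as for Paqr9. Such a likeness in the order of groups is what the ranking by r selects, at both of its ends.

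At the other end stood Ddit4 (r = -0.964), an inhibitor of mTORC1 signalling, Slc7a2 (-0.958), a cationic amino acid transporter, Tat (-0.957), the tyrosine aminotransferase, Tsc1 (-0.950), a subunit of the tuberous sclerosis complex, and Irs2 (-0.949), an insulin receptor substrate. Irs2 held 703 and 942 normalized counts in fasted controls and 263 and 490 in fasted livers labelled MED13-LKO. With sucrose it held 92.9 and 94.8, and 101 and 92.2, in the same order, so the genotypes differed in range when fasted and not when fed with sucrose. Tat held 97464 and 123400 in fasted controls and 66664 and 62038 in fasted livers labelled MED13-LKO. Tat is also one of the 6 hepatocyte markers.

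**Figure D3:**
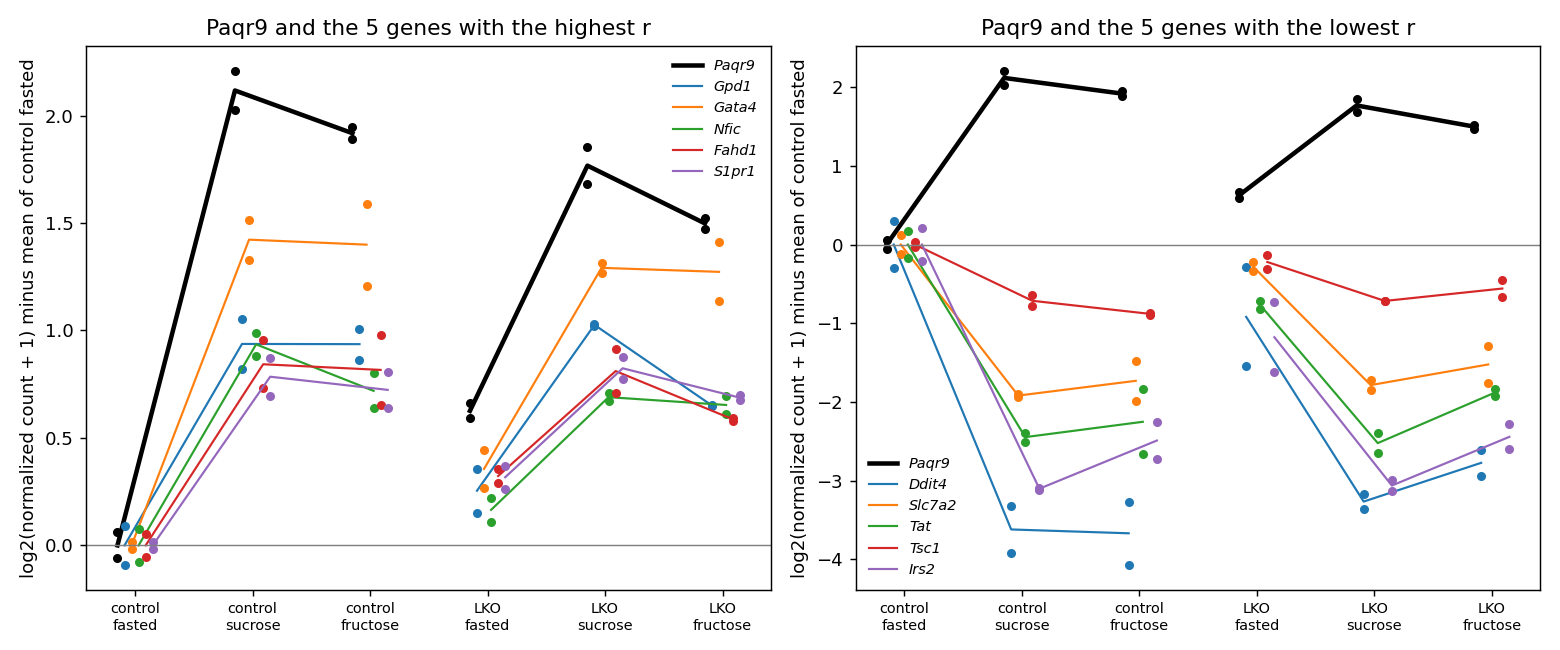
Log2(normalized count + 1) relative to the mean of the fasted controls for Paqr9 (black) with the 5 genes of highest (left) and lowest (right) Pearson's r over the 12 libraries, where points are mice and lines join the group means of a genotype. Paqr9 changes by 2.12 with sucrose in controls, more than the 5 positive genes, while Ddit4, Irs2 and Tat fall there by more than Paqr9 rises.

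On the ligand side of the adiponectin receptors, 0 of 5 tested genes were called by limma with either sugar over genotypes or between genotypes over diets. Of all genes tested, 16.8% were called with sucrose, 16.2% with fructose and 25.3% between genotypes. In the same order, 1, 0 and 0 of the 5 had an unadjusted p under 0.05, against 3849, 3857 and 4571 of the 12366 genes. Appl1, the adaptor that binds both receptors, held 266 and 291 normalized counts in fasted controls and 316 and 287 with sucrose. Its log2 fold change over genotypes was 0.07 with sucrose (adjusted p = 0.735) and 0.24 with fructose (adjusted p = 0.190). Apart from the library with 22.5, Adipoq was too low to be tested.

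Among AMPK subunits and upstream kinases, 1 of 10 tested genes was called higher with sucrose over genotypes (8.31% of all genes tested were called higher, 8.53% lower) and 1 with fructose (7.74% higher, 8.5% lower). It was Prkaa2, the catalytic subunit alpha 2, at 0.43 with sucrose (adjusted p = 0.0153) and 0.39 with fructose (adjusted p = 0.0258). In controls its rises were 0.64 and 0.70 (limma adjusted p = 0.0212 and 0.0210). In livers labelled MED13-LKO they were 0.22 and 0.07 and were not called (limma adjusted p = 0.406 and 0.814). The difference between genotypes in these responses was not called either (limma adjusted p = 0.607 and 0.416). By genotype over diets 2 of 10 were called higher (12.1% of all genes higher, 13.2% lower). Camkk2, a kinase upstream of AMPK, held 53.4 and 56.7 normalized counts in fasted controls and 145 and 205 in fasted livers labelled MED13-LKO. It was higher there over diets by 1.39 (adjusted p = 0.000393), and Prkab1, a regulatory subunit, by 0.37 (adjusted p = 0.00194). Prkaa1, the catalytic subunit alpha 1, was listed at 0 in both fasted controls and in 1 fructose-fed control and at 86.1 to 360 elsewhere, and it was called in none of these averages. Within groups it was called for sucrose against fasting in controls (adjusted p = 0.0223 from limma) and by genotype in fasted livers (adjusted p = 0.0294), both against the fasted controls at 0, so no fold is given.

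Adiponectin receptors are known for ceramidase activity, and of 14 tested genes for ceramide and sphingosine enzymes 2 were called lower with each sugar (8.53% of all genes tested with sucrose, 8.5% with fructose). Acer2, an alkaline ceramidase, fell by 1.18 with sucrose (log2 fold change -1.18, adjusted p = 0.000221), and its log2 fold change with fructose was -1.01 (adjusted p = 0.000829). For Cers6, a ceramide synthase, the log2 fold changes were -0.35 and -0.58. Within genotypes Cers6 was called with each sugar in livers labelled MED13-LKO and with neither in controls. Its control values overlapped, at 656 and 526 fasted and 595 and 521 with sucrose. Acer2 held 331 and 441 normalized counts in fasted controls against 179 and 178 with sucrose. Over diets 3 of the 14 were higher in livers labelled MED13-LKO and 1 was lower (12.1% and 13.2% of all genes). Degs1, which makes the final double bond of ceramide, was higher by 0.51 (adjusted p = 0.000678), Acer2 by 0.33 and Sphk2, a sphingosine kinase, by 0.24, while the log2 difference of Cers2, another ceramide synthase, was -0.31.

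For the progestin receptor side, Pgrmc1, a progesterone receptor membrane component, was lower in livers labelled MED13-LKO over diets by 0.48 (-0.48, adjusted p = 0.000113). It held 28205 and 28684 normalized counts in fasted controls and 18631 and 19552 in fasted livers labelled MED13-LKO, without overlap. Pgrmc2 was not called in these averages. Paqr7, named above, thus stood higher and Pgrmc1 lower in the same livers.

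Of 11 genes for proteins reported to act with PAQR9 or PAQR3, 2 were called higher and 1 lower with sucrose (8.31% and 8.53% of all genes tested), and 2 higher and 2 lower with fructose (7.74% and 8.5%). Srebf1, the lipogenic transcription factor that SCAP escorts, rose by 1.91 and 1.53 with sucrose and fructose (adjusted p = 0.000183 and 0.00101), and Insig1, which retains SCAP, by 0.78 and 0.85. Insig2 fell, with log2 fold changes of -0.63 and -0.56, and Scap fell with fructose (-0.27). By genotype over diets 2 of the 11 were higher and 3 lower (12.1% and 13.2% of all genes), among them Insig1 (-0.67), Srebf1 (-0.60), Scap (-0.33) and Huwe1, a ubiquitin ligase (0.28). Ppara, the nuclear receptor itself, passed none of these averages, at -0.30 with sucrose (adjusted p = 0.260), -0.41 with fructose (adjusted p = 0.131) and 0.13 by genotype (adjusted p = 0.544).

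Fasting targets of PPAR alpha fell in part while Paqr9 rose. Of 20 tested genes 5 were called lower and 1 higher with sucrose over genotypes (8.53% and 8.31% of all genes), and 4 lower with fructose (8.5%). Angptl4, an inhibitor of lipoprotein lipase, fell, with log2 fold changes of -3.56 and -2.83 (adjusted p = 0.000183 and 0.00101). Pdk4, a brake on pyruvate oxidation, fell too (-1.46 and -1.19), as did Ppargc1a, a transcriptional coactivator (-1.07 and -1.14). Cpt1a, the gate of mitochondrial fatty acid entry, fell by 0.56 with fructose (-0.56) and was called lower with sucrose as well. Fgf21, a fasting and sugar-responsive hormone, went the other way with sucrose, by 1.99 over genotypes (adjusted p = 0.0191). In controls it went from 1.13 and 4.82 normalized counts, near the floor, to 25.1 and 73.5. Livers labelled MED13-LKO held 50.7 and 34.4 when fasted and 90.2 and 30.3 with sucrose, which overlapped, and Fgf21 was not called there.

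By genotype over diets, 9 of the 20 PPAR alpha targets were called higher in livers labelled MED13-LKO and 0 lower (12.1% and 13.2% of all genes), with a median of 0.31 over the list against 0.01 over all genes tested. Cyp4a31, a fatty acid hydroxylase, was higher by 2.60 (adjusted p = 0.000131), Acot1, an acyl-CoA thioesterase, by 2.07 (adjusted p = 6.36e-05), Fgf21 by 1.56 (adjusted p = 0.0159) and Vnn1, a pantetheinase, by 1.16 (adjusted p = 0.00986). The Fgf21 values in fasted controls were 1.13 and 4.82 normalized counts against 50.7 and 34.4 in fasted livers labelled MED13-LKO. Paqr9 was above the controls in the fasted livers of that genotype only (0.63). It was below them with sucrose (-0.35) and with fructose (-0.42), and its average over the diets was -0.05. A link between Paqr9 and these targets was not tested.

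**Figure D4:**
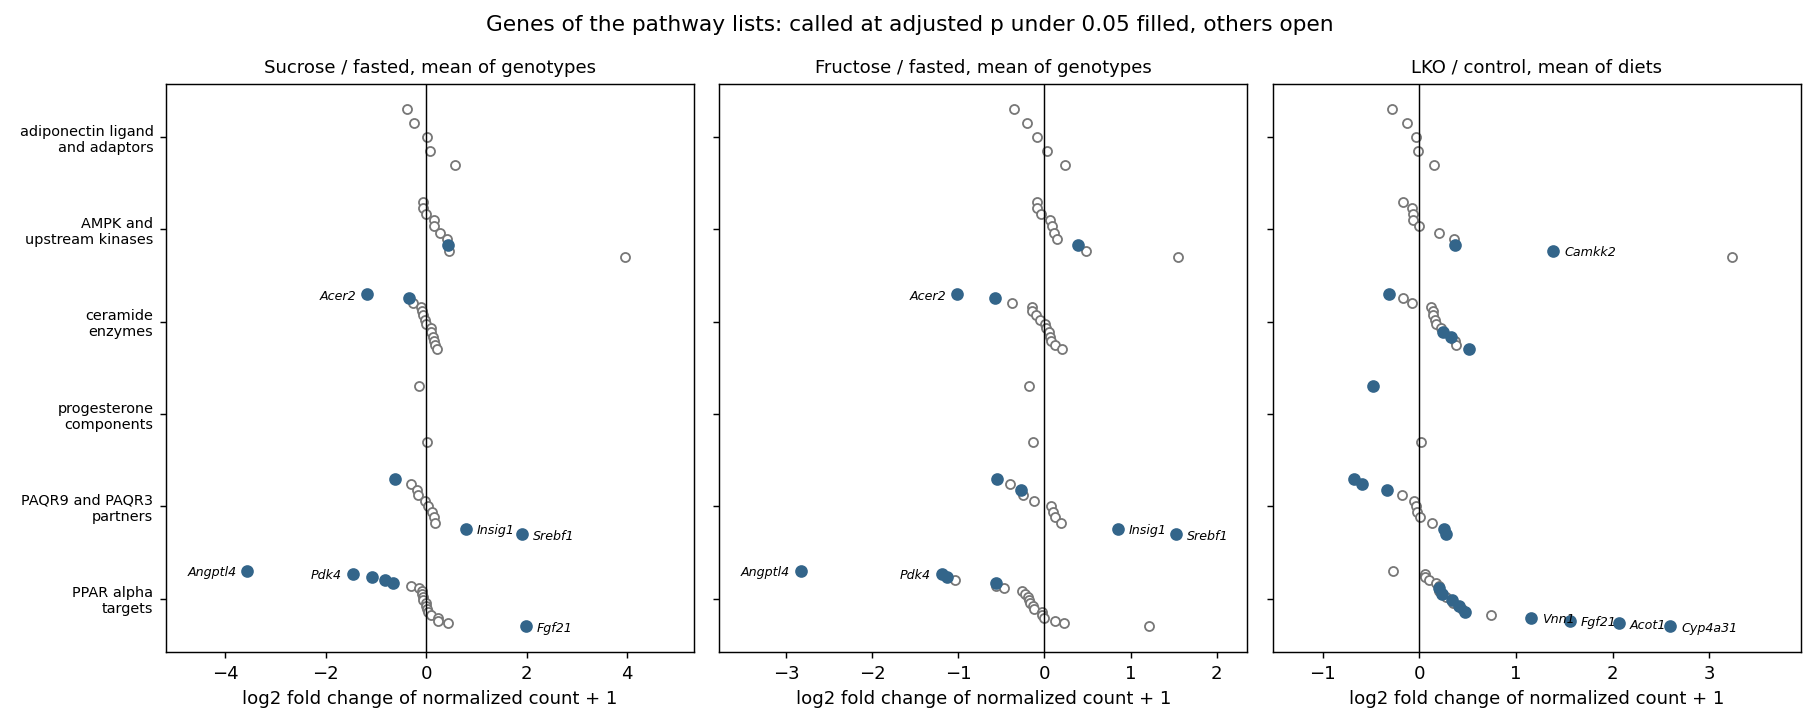
Log2 fold changes of the tested genes of 6 pathway lists for sucrose and for fructose against fasting (means of the genotypes) and for MED13-LKO-labelled against control livers (mean of the diets), with called genes filled and others open. Angptl4 lies at -3.56 with sucrose, Srebf1 at 1.91, Camkk2 at 1.39 by genotype, and the open point at 3.96 with sucrose is Prkaa1, listed at 0 in 3 libraries.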

How the data were processed

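Liver RNA of 12 mice was sequenced, and groups and replicate numbers were taken from the sample titles. The authors trimmed reads with Trim Galore 0.6.5 (stringency 5), estimated transcript counts with kallisto 0.46.0 and normalized them with DESeq2 1.24.0, with mm10 as the genome build (versions and build per the submitters' processing notes), and deposited the result as a signal, normalized counts for 16346 genes. These are not raw counts, so no count test was run.

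Of the identifiers, 16212 were matched to symbols in GENCODE M21. Genes were tested where the mean of the 12 libraries reached 10, which kept 12366. A linear model of log2(normalized count + 1) with 6 group means was made with limma 3.58.1 (R 4.3.3), using empirical Bayes with a mean trend. Two-sided p-values were adjusted by Benjamini and Hochberg over all genes tested, with calls at an adjusted p under 0.05. The fit was tested on simulated data. The p-values rest on an estimate of the spread pooled over the 6 groups of 2 mice each and shrunk towards the mean trend. Shared 31-base words were counted over GENCODE M21 transcripts on GRCm38, and upstream windows came from RefSeq (GRCm38.p6). Tables and figures used Python 3.11.15, pandas 2.3.3 and matplotlib 3.10.9.

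Members, pathway lists and marker lists were chosen with earlier results of these data known. All members were named, the 5 genes of highest and the 5 of lowest r with Paqr9, and up to 4 called genes per list and contrast with the largest changes. Where a list had no call, Appl1, Adipoq, Ppara and Prkaa2 could be named. Ppara, whose list had calls, Prkaa1 and Pgrmc2 fell outside this rule and were named with their values seen. Alternatives were pseudocounts of 0.1 and 10, no filter, equal 75th percentiles, a replicate block, only the groups compared, no trend and each library left out. The qRT-PCR, chromatin and glycogen experiments were not analysed here.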

Additional observations from a re-analysis of the deposited data

Results flagged for a closer look

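The genotypes differed in the feeding response of Paqr9, by a log2 difference of -0.98 with sucrose and of -1.05 with fructose. Paqr9 was chosen for these differences, so they carry no test of their own. In both cases every fed liver was above every fasted liver of its genotype, and the step was smaller in the livers labelled MED13-LKO. Both values rest on the same 4 fasted livers. Some markers of hepatocytes, Kupffer cells, endothelium and red blood cells were called by genotype over the diets, and their part in these differences was not tested.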

How the results depend on the processing

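Settings changed how many of the 5 tested relatives of Paqr9 were called within single groups, and not the counts in the averages over genotypes or diets beyond 1.5 times. With sucrose in controls 1 was called in place of 2 without the trend and with only the groups compared, and 1 to 2 with a library left out. With fructose in controls 1 was called with the replicate block, 1 without the trend, 0 with only the groups compared, and 1 to 2 with a library left out. In livers labelled MED13-LKO, 2 were called with sucrose with only the groups compared (0 to 1 with a library left out), and 0 with fructose without the trend (0 to 2). Between genotypes, 1 was called with sucrose under the block (0 to 1), and with fructose 0 without the trend and 0 with only the groups compared (0 to 2).

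The sign of 2 values with no call turned. The genotype difference of Adipor2 in fasted livers ran from -0.056 (without fasted control replicate 1) to 0.090 and was -0.0025 without fasted replicate 1 labelled MED13-LKO. The sucrose interaction of Paqr7 ran from -0.16 (without control sucrose replicate 1) to 0.51. Of the 44 log2 values of Paqr9, Adipor1, Adipor2 and Paqr7 recomputed, no other changed sign. Pseudocounts of 0.1 and 10, no filter and equal 75th percentiles changed none of these counts beyond 1.5 times. No source says that equal replicate numbers mark shared mice or handling. Same-numbered deviations correlated between -0.14 and 0.08, which cannot show whether the numbers pair the samples. The deposited column names number the fed mice otherwise than the titles, and pairing by those numbers was not examined. With the replicate block, Paqr7 passed with sucrose by genotype (0.68, adjusted p = 0.0445 from limma) and over genotypes (0.40, adjusted p = 0.0459), Adipor1 no longer passed with fructose in controls (adjusted p = 0.0539 from limma), and 2 relatives were called by genotype with fructose, also 2 with the numbers of the fructose controls crossed, a setting chosen after seeing the data. Values of pathway genes are given under the main setting only.

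With 2 mice per group, depth limits Paqr8 and Paqr4, and wide intervals limit Paqr3 and Paqr7 within diets.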
